A study of Mus musculus with 6 samples.

Results

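The transcription factors that set up the sympathetic lineage, together with the MYC family members that drive neuroblastoma, were examined in neuro2a (N2a) cells, a mouse neuroblastoma line, with and without knockdown of the CCAAT-binding factor NF-Y. The group holds 8 genes, Phox2a, Hand1, Hand2, Gata2, Gata3, Isl1, Mycn and Myc, chosen by name from what is known of neural crest-derived tumour cells and read from every probe whose accession maps to them. Each of the 8 was read by 1 probe, and all 8 were among the 16490 genes tested. RNA came from 3 control samples, which received an empty RNAi vector, and 3 knockdown samples, made in the same line with RNAi against 2 subunits of the factor, NF-YA and NF-YC. Both vectors were delivered by transient transfection, so each array averages over cells that may have taken up different amounts, and in such bulk RNA fewer cells of one type cannot be told apart from less RNA per cell. No label says whether the replicates were separate cultures, so the p-values measure only the spread between these samples, which may be technical.

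Sympathetic neurons and chromaffin cells arise from neural crest cells that meet BMP signals beside the dorsal aorta and switch on a first set of transcription factors that includes the homeodomain factor Phox2a. The bHLH factors Hand1 and Hand2, the zinc finger factors Gata2 and Gata3 and the LIM-homeodomain factor Isl1 join in, and these proteins hold each other and the noradrenaline-synthesizing enzymes in an expressed state. Neuroblastoma arises in this lineage, keeps much of the same circuit and is often driven by MYCN, a bHLH leucine zipper factor that, like its relative MYC, binds DNA as a dimer with MAX. NF-Y is a trimer of NF-YA, NF-YB and NF-YC that binds CCAAT in promoters.

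Values are the log2 of the processed signal relative to the 75th percentile of its array, so they compare one probe between arrays and not one gene with another. The 75th percentile lay between 718 and 754 intensity units, and 61.9% to 66.2% of spots were well above background. Nfya signal was 59.1% of control and Nfyc signal 28.6% on each of its 2 probes, while the 3 probes of the untargeted Nfyb read 1.78-fold to 1.91-fold higher. A gene was called when its limma adjusted p was below 0.05 and its fold change above 1.5, which took 824 genes lower, 5.00% of those tested, and 644 higher, 3.91%. At the adjusted p alone the shares were 15.8% lower and 15.7% higher. All arrays lay on 1 slide, with the 3 controls and knockdown 1 in its first row and knockdown 2 and 3 in its second.

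Of the 8 factors, Mycn was called lower and none was called higher, against 5.00% and 3.91% of all genes. At the adjusted p alone, Mycn and Phox2a were lower and Gata2, Gata3 and Isl1 were higher, which makes 2 lower and 3 higher, against 15.8% and 15.7%. Hand2, Hand1 and Myc did not pass. The median change of the 8 was 0.20 on the log2 scale, beside 0.0053 over all genes tested.

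**Figure D1:**
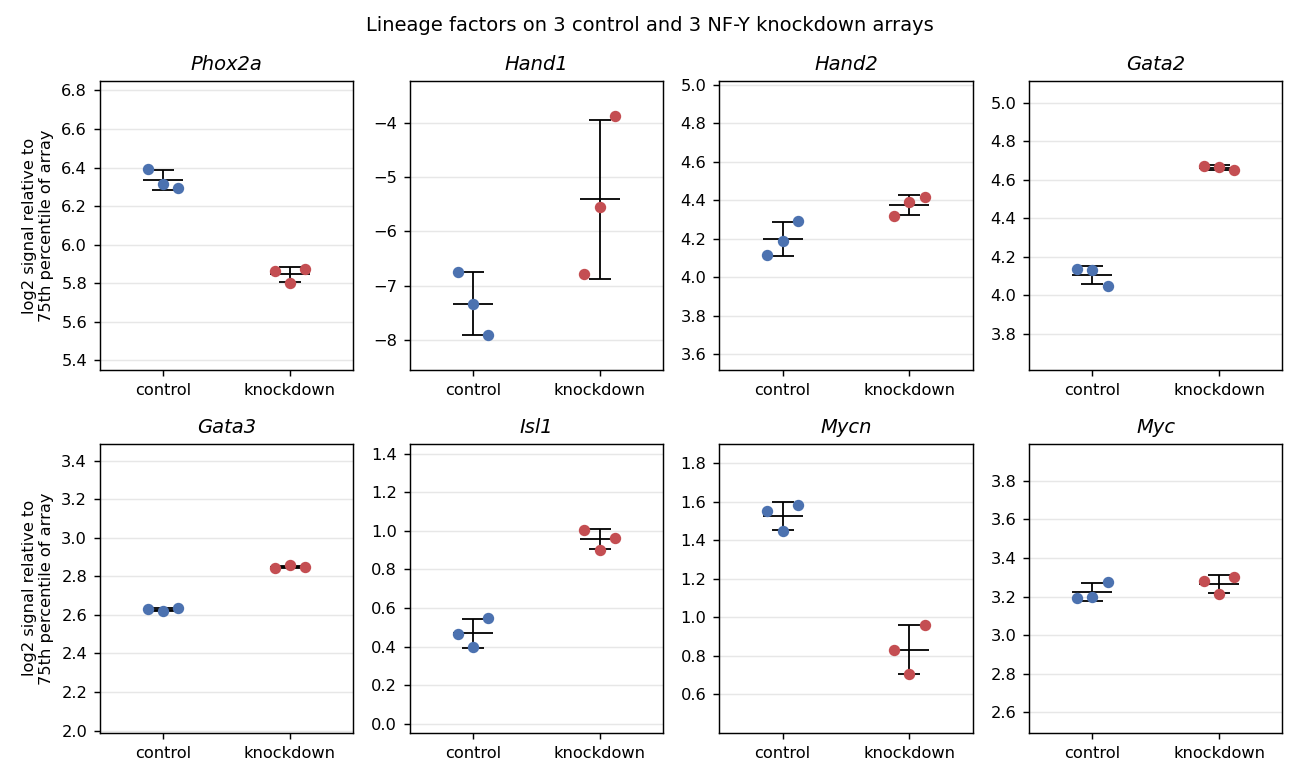
Normalized signal (log2 relative to the 75th percentile of the array) of the 8 factors on 3 control arrays (blue) and 3 knockdown arrays (red), with the mean and SD as black bars. Each panel has its own vertical axis. The groups are apart for 6 genes and overlap for Hand1 and Myc. Of all genes tested, 27.1% have every knockdown array below every control and 27.7% have every one above. Hand1 lies at the lower end of the scale with knockdown values from -6.79 to -3.88.

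Because NF-Y binds CCAAT, the letters CCAAT were looked for on both strands (CCAAT or ATTGG) in RefSeq promoter windows of 300 bases, from 250 before to 50 after an annotated start (build GRCm38.p6). A window was found for 6 of the 8 genes, with 2 for Gata2, but not for Hand1 or Myc. Of all 32851 windows, 37.4% hold the motif. Counted by gene, 42.6% of the 13098 tested genes with a window hold it in at least 1, as do 4 of the 6 factors: Phox2a, Hand2, Gata2 and Isl1, each with 2 matches. The windows of Mycn and Gata3 and the first window of Gata2 have none. Among genes with a window, 55.8% of 660 called lower and 36.5% of 491 called higher hold it, given as a description with no test. The stretches around the matches of Hand2, Gata2 and Isl1 are read 5′ to 3′ on the strand of the gene, with the motif in capitals and 15 bases on each side.
Hand2, chr8:57320821-57320855, plus strand: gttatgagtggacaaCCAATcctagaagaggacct
Hand2, chr8:57320913-57320947, plus strand: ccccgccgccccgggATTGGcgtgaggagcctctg
Gata2, chr6:88198566-88198600, plus strand: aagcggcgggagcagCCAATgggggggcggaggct
Gata2, chr6:88198604-88198638, plus strand: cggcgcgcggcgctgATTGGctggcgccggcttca
Isl1, chr13:116309749-116309783, minus strand: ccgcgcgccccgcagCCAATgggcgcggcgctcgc
Isl1, chr13:116309703-116309737, minus strand: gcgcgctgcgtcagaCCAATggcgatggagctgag
The 250 bases before the start of Mycn, the 1 factor called, are shown for comparison, with no capitals since no CCAAT or ATTGG was found in them.
Mycn, chr12:12941837-12942086, minus strand: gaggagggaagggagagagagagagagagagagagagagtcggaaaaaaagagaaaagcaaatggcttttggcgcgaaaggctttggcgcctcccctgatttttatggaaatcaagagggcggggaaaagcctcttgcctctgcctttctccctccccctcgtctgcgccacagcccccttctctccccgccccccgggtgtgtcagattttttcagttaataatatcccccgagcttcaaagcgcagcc

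**Figure D2:**
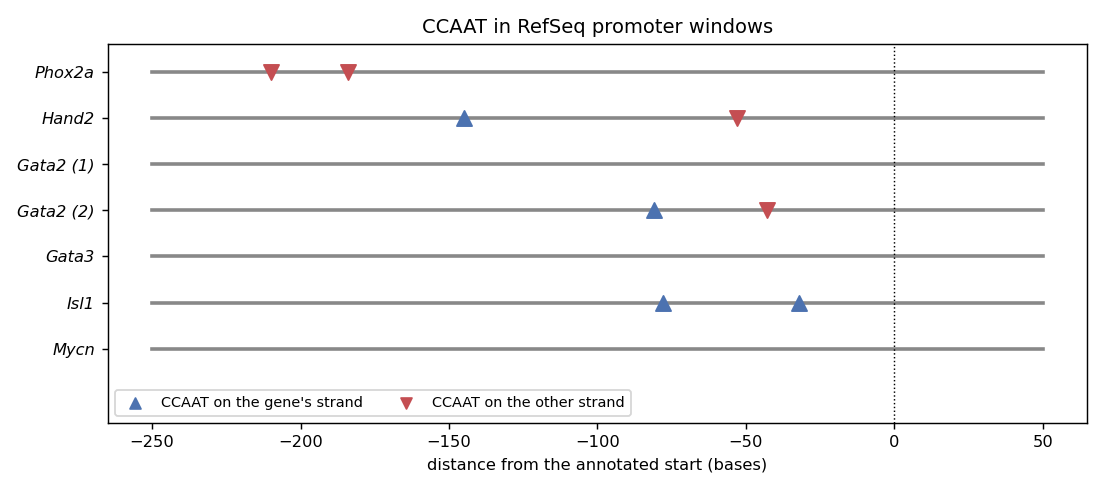
Positions of CCAAT in the RefSeq promoter windows (grey lines) of 6 factors, in bases from the annotated start, with the strand of the gene in blue and the other strand in red. The 2 windows of Gata2 are drawn apart, and the Mycn, Gata3 and first Gata2 windows are empty.

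Mycn encodes N-MYC, the MYC family member amplified in aggressive neuroblastoma. Its signal (probe A_52_P536494) was 1.55, 1.45 and 1.58 on the control arrays and 0.83, 0.70 and 0.96 on the knockdown arrays. The lowest control lay above the highest knockdown array, so the groups did not overlap. The change was -0.69 on the log2 scale (SE 0.083, 95% interval -0.90 to -0.49), which left 61.8% of the control signal, with a limma adjusted p of 0.00488. With the slide row as a block the size was the same, -0.70, but the adjusted p was 0.0545 and Mycn was not called. Within the row that holds both groups the change was also -0.70. The second row holds no control, so both changes are knockdown 1 against the controls and are not separate checks. Within the row that holds both groups only 1 knockdown array remains, and its spread is taken from the controls.

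Myc encodes the widely expressed family member c-MYC, and its probe (A_52_P108346) is spotted at 2 places on each array. Its signal was 3.19, 3.20 and 3.28 on the control arrays and 3.28, 3.22 and 3.30 on the knockdown arrays, and the groups overlapped. The change was 0.043 (SE 0.050, 95% interval -0.083 to 0.17, limma adjusted p = 0.587), and with arrays centred on their median it took the other sign, at -0.074. Per array, Mycn minus Myc signal was -1.70 ± 0.057 (SD, n = 3) in control cells and -2.43 ± 0.085 (SD, n = 3) in knockdown cells. That difference of changes, -0.74, had an exact two-sided permutation p of 0.1, the smallest that 3 against 3 arrays allow, and 0.15 after adjustment over the 3 pairs of related factors compared.

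Phox2a is a homeodomain factor that helps direct noradrenergic identity and the genes for the noradrenaline-synthesizing enzymes. Its signal (probe A_55_P2000284) was 6.40, 6.32 and 6.29 on the control arrays and 5.86, 5.80 and 5.88 on the knockdown arrays. All 3 knockdown arrays lay below all 3 controls, as they did for 27.1% of all genes tested. The change was -0.49 (SE 0.050, 95% interval -0.61 to -0.36), or 71.3% of control, with a limma adjusted p of 0.00308. The fold, 1.40, was under the minimum of 1.5, so Phox2a was not called, but it was called with arrays centred on their median, where the change was -0.60.

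Gata2 and Gata3 encode zinc finger factors of which Gata3 is needed for sympathetic neurons to make noradrenaline and survive. Gata2 signal (probe A_52_P233441) was 4.14, 4.13 and 4.05 on the control arrays and 4.67, 4.67 and 4.65 on the knockdown arrays. Gata3 signal (probe A_66_P111011) was 2.63, 2.62 and 2.63 on the control arrays and 2.84, 2.86 and 2.85 on the knockdown arrays. For both genes every knockdown array was above every control, as for 27.7% of all genes tested, and arrays of one group lay close together. The change of Gata2 was 0.56 (SE 0.045, 1.47-fold, limma adjusted p = 0.00167), just under the minimum fold, and Gata2 was called under quantile normalization at 0.62. The change of Gata3 was 0.22 (SE 0.037, 1.17-fold, limma adjusted p = 0.0133). Gata2 minus Gata3 signal was 1.48 ± 0.054 (SD, n = 3) in control cells and 1.81 ± 0.014 (SD, n = 3) in knockdown cells, a difference of changes of 0.33 with an exact two-sided permutation p of 0.1 (0.15 adjusted over the 3 pairs).

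Isl1 encodes a LIM-homeodomain factor of sympathetic, sensory and motor neurons that works through the adaptor LDB1. Its probe (A_52_P337246) is spotted at 10 places on each array, and the SD between those spots on 1 array was 0.052 to 0.083. The mean over spots was 0.46, 0.40 and 0.55 on the control arrays and 1.01, 0.90 and 0.96 on the knockdown arrays. Every knockdown array was above every control, as for 27.7% of all genes tested. The lowest spot of a knockdown array was at 0.77 and the highest control spot at 0.65, but spots of an array are repeat readings of 1 sample. The change was 0.49 (SE 0.059, 95% interval 0.34 to 0.64, 1.40-fold, limma adjusted p = 0.00509), again under the minimum fold.

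**Figure D3:**
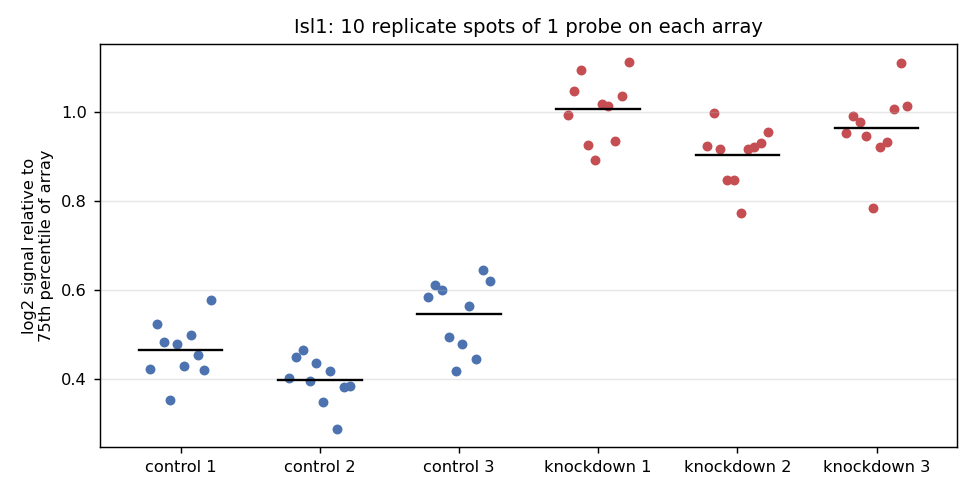
Isl1 signal (log2 relative to the 75th percentile of the array) at each of its 10 spots on the 3 control arrays (blue) and the 3 knockdown arrays (red), with the mean of each array as a black line. Spots of an array are repeat readings of 1 sample, and the array means lie between 0.40 and 0.55 in control cells and between 0.90 and 1.01 in knockdown cells.

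Hand2 and Hand1 encode bHLH factors of the sympathetic lineage and the heart, of which Hand2 is needed for noradrenergic differentiation. Hand2 signal (probe A_55_P2016237) was 4.12, 4.19 and 4.29 on the control arrays and 4.32, 4.39 and 4.42 on the knockdown arrays. The groups did not overlap, but the highest control lay only just below the lowest knockdown array, and the change of 0.18 (SE 0.064, 95% interval 0.014 to 0.34) had a limma adjusted p of 0.114. Hand1 was near the limit of the array, and its probe (A_51_P342549) was flagged well above background on none of the control arrays, where it read 7.03, 4.55 and 3.13 intensity units. It read 6.73 units on knockdown array 1, again not well above background, and 15.3 and 49.7 units on knockdown arrays 2 and 3, where it was. On the log2 scale these were -6.75, -7.34 and -7.91 in control cells and -6.79, -5.55 and -3.88 in knockdown cells, and the groups overlapped. Set, on each control array, against the dimmest probe flagged well above background there, the knockdown mean was 2.27-fold higher. That mean includes knockdown array 1, which was not well above background, so the value is no lower limit. The test did not pass (limma adjusted p = 0.154). The fitted change of 1.92 became 1.16 without knockdown replicate 3 and 0.54 within the slide row that holds both groups. After normexp background correction it was 0.21 to 0.26. Normexp was run with an offset of 50 intensity units added to every probe. That offset by itself shrinks the log2 change of a probe this dim, here and for the other dim probes below. Hand1 minus Hand2 signal differed between the groups by 1.75 (exact two-sided permutation p = 0.2, also 0.2 after adjustment), and the sign turned after normexp, to -0.0078 and -0.11.

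With the slide row as a block, the changes were -0.47 for Phox2a (limma adjusted p = 0.043), 0.56 for Gata2 (0.027) and 0.54 for Isl1 (0.0416). They were 0.22 for Gata3 (0.106), 0.12 for Hand2 (0.483) and 0.057 for Myc (0.694). Since the second row holds no control, these changes are knockdown 1 against the controls, and the other knockdown arrays add only to the spread. The direction of Mycn, Phox2a, Gata2, Gata3, Isl1 and Hand2 was kept under all 23 alternatives, while the share of calls that were lower moved from 56.1% to 75.5% with median centring, 69.0% with spike-ins and 65.3% to 67.7% after normexp.

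**Figure D4:**
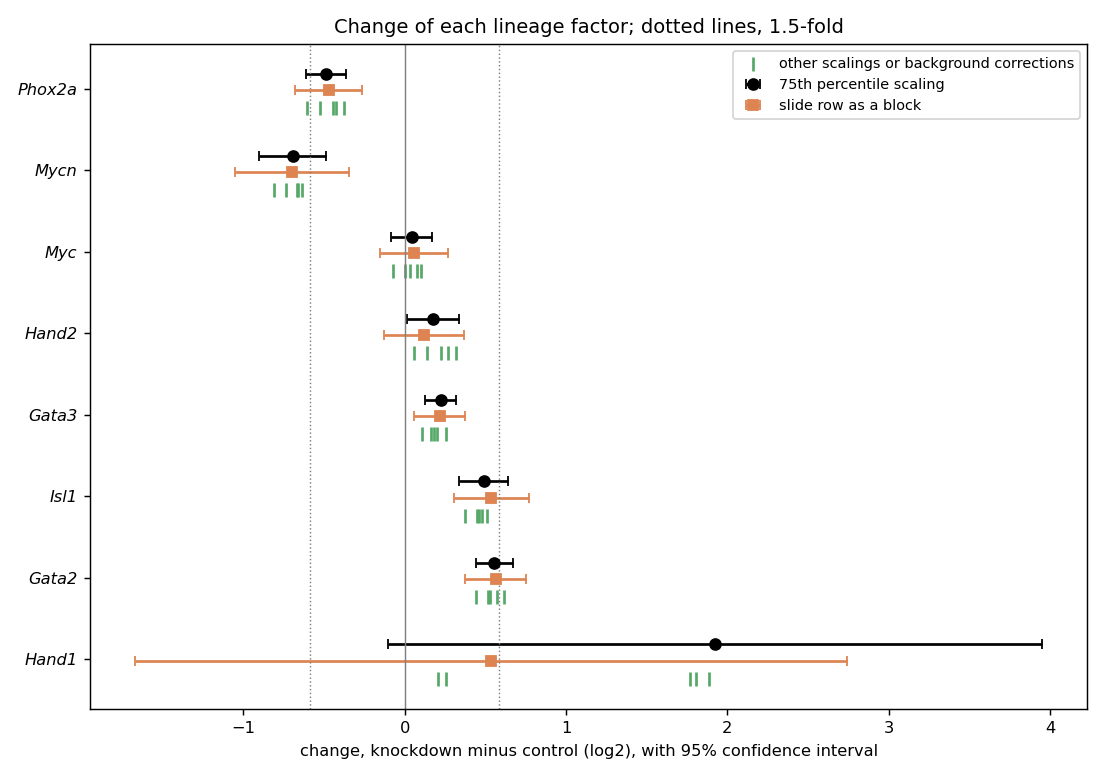
Change of each factor, knockdown minus control on the log2 scale, with the 95% confidence interval of the limma fit (black), the same with the slide row as a block (orange) and the changes under 5 other scalings or background corrections (green). The orange changes are knockdown 1 against the controls, since the second slide row holds no control. Dotted lines mark 1.5-fold. Mycn lies beyond the lower line in every one of these, and the Hand1 interval, from -0.10 to 3.95, crosses 0.

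The wider set of sympathoadrenal transcription factors and the other lists were read from the same fit, with 5.00% of all genes called lower and 3.91% higher as the background of every list. Of 16 tested of 18 listed, 1 was called lower and 1 higher, with a median change of 0.0076. Tfap2b, which encodes AP-2 beta and is used in sympathetic neuron development, was lower by 1.02 on the log2 scale, with controls between -3.52 and -3.27 and knockdown arrays between -4.73 and -4.24 (change -1.02, limma adjusted p = 0.00898). Tlx2, a homeobox gene of neural crest derivatives, was higher by 0.78 (limma adjusted p = 0.0199). That call was lost without control replicate 1 or any 1 knockdown replicate, at adjusted p of 0.0514 to 0.067, and Tfap2b and Tlx2 were both not called with the slide row as a block (adjusted p 0.0816 and 0.095). After normexp neither was called, with changes of -0.43 and -0.48 for Tfap2b and 0.42 and 0.37 for Tlx2, and Tfap2b was not called with the replicate block (adjusted p = 0.0609).

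The list of DNA-binding and cofactor partners of the HAND, GATA and LIM-homeodomain factors had 17 genes tested of 20. Of these, 1 was called lower and none higher, with a median change of 0.11. Lmo4 encodes a LIM-only protein that binds LDB1, the adaptor that ISL1 uses. On its brighter probe its signal was 2.22, 2.16 and 2.13 in control cells and 1.23, 1.15 and 1.16 in knockdown cells, a change of -0.99 (limma adjusted p = 0.000528). On its other probe the groups overlapped and the change of -0.48 did not pass (adjusted p = 0.33). At the adjusted p alone 3 partners were lower and 5 higher, against 15.8% and 15.7% of all genes. Zfpm1, which encodes the GATA cofactor FOG1, was among them at 0.53 (limma adjusted p = 0.00242). Tcf3, which encodes an E protein that pairs with HAND factors, was another, at -0.33 (0.00706). Neither reached the minimum fold. Tcf12 and Tcf4 of the same list changed by -0.19 and -0.044 and did not pass (limma adjusted p = 0.0979 and 0.473).

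Noradrenergic genes, which include known targets of PHOX2A, GATA3 and HAND2, were the list nearest in function to the factors. Of 12 tested of 14, 2 were called lower and none higher, and the median change was -0.21. At the adjusted p alone 4 were lower and none higher, against 15.8% and 15.7% of all genes. Th, which encodes tyrosine hydroxylase, the rate-limiting enzyme of catecholamine synthesis, read 1.10, 1.09 and 1.01 in control cells and 0.44, 0.49 and 0.43 in knockdown cells. The groups were well apart, with a change of -0.62 and 65.3% of control left (limma adjusted p = 0.00154), and the call was lost when arrays were centred on spike-ins. Slc18a2, which encodes the vesicular monoamine transporter VMAT2, changed by -0.88 and -0.80 on its 2 probes, with limma adjusted p of 0.000549 and 0.00163. Dbh, whose product makes noradrenaline from dopamine, changed by -0.061 (limma adjusted p = 0.443).

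Cholinergic genes and ganglionic nicotinic receptor subunits had 1 called lower and 1 higher among 9 tested of 10, with a median change of 0.015. Vip encodes a neuropeptide of cholinergic sympathetic neurons, and its signal was -1.89, -2.15 and -1.73 in control cells and -3.45, -3.69 and -3.23 in knockdown cells. That is a change of -1.54, or 34.4% of control (limma adjusted p = 0.00343). After normexp the change of Vip was smaller, at -0.95 and -0.98, and Vip was still called lower. The nicotinic subunit gene Chrna5 was well above background on none of the controls and only on knockdown arrays 1 and 2. With control values under the dimmest probe flagged well above background raised to it, the knockdown mean was 1.88-fold higher, which is no lower limit. Chrna5 was called higher (limma adjusted p = 0.0478). That call was lost when any 1 array was left out, at adjusted p of 0.0567 to 0.13. After normexp the change of Chrna5 was 0.15 and 0.11 and did not pass.

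Among 17 genes for neurotrophic and BMP receptors and their signalling, 2 were called lower and none higher, with a median change of -0.12. At the adjusted p alone 6 were lower and 1 higher, against 15.8% and 15.7% of all genes. Ret, the signalling receptor for GDNF family ligands, read 2.65, 2.76 and 2.84 in control cells and 1.84, 1.68 and 1.83 in knockdown cells. Its groups were apart by more than their spread, with a change of -0.97 and 51.0% of control left (limma adjusted p = 0.00154). Ltk, which encodes the receptor tyrosine kinase closest to ALK, changed by -0.80 (limma adjusted p = 0.00282), while Alk itself, the kinase mutated in neuroblastoma, changed by 0.12 (0.384). The neurotrophin receptor genes Ntrk2 and Ntrk3 changed by -0.40 and -0.28, both past the limma adjusted p (0.00498 and 0.0157) and under the minimum fold.

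MYC proteins act with and against a network of other MAX partners. Of 18 genes of the MAX network and MYC cofactors, 3 were called higher and none lower, against 3.91% and 5.00% of all genes, and 4 were higher and 2 lower at the adjusted p alone, against 15.7% and 15.8%. The median change was 0.017, and 2 of the 3 called, Mycl and Mxi1, were well above background on no control array. Max, the obligate partner of both MYC proteins, changed by -0.10 (limma adjusted p = 0.257). Mxd1, which encodes a MAX partner that opposes MYC, was higher by 0.61 on its brighter probe (limma adjusted p = 0.00287) and changed by -0.054 on the other (0.665), and its fold fell below the minimum without control replicate 2, at 0.58, with median centring, at 0.49, and after normexp, at 0.47 and 0.46. With spike-in centring its adjusted p was 0.0946. Mycl, the third family member, was well above background on the 3 knockdown arrays and was called higher (limma adjusted p = 0.0368). With control values under the dimmest probe flagged well above background raised to it, the knockdown mean was 2.26-fold higher. The call was lost when any 1 array was left out, at adjusted p of 0.0554 to 0.0989. Mycl was called in 8 of 23 alternatives, and its fitted change of 1.29 became 0.21 and 0.16 after normexp. Mxi1 was also called higher, but none of the 6 arrays had its probe well above background, so no fold is given.

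Of 9 genes tested for turnover of the MYC proteins, 1 was called lower and 1 higher. Gsk3b encodes the kinase that marks MYC and N-MYC for degradation, and its 3 probes changed by -0.73, -1.15 and -0.21, with limma adjusted p of 7e-04, 0.000415 and 0.0305. Fbxw7 encodes the ubiquitin ligase subunit that recognises the marked proteins, and it changed by 0.65 and 0.48 on its 2 probes (limma adjusted p = 0.00171 and 0.00334). Its call was lost with median centring, where the change was 0.54, and with spike-in centring, where the adjusted p was 0.0541. Of 26 MYC target genes, such as Odc1, Ncl and Cdk4, none was called in either direction by limma. At the adjusted p alone 3 were lower and 1 higher, against 15.8% and 15.7% of all genes. Their median change was 0.0071, beside 0.0053 for all genes.

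**Figure D5:**
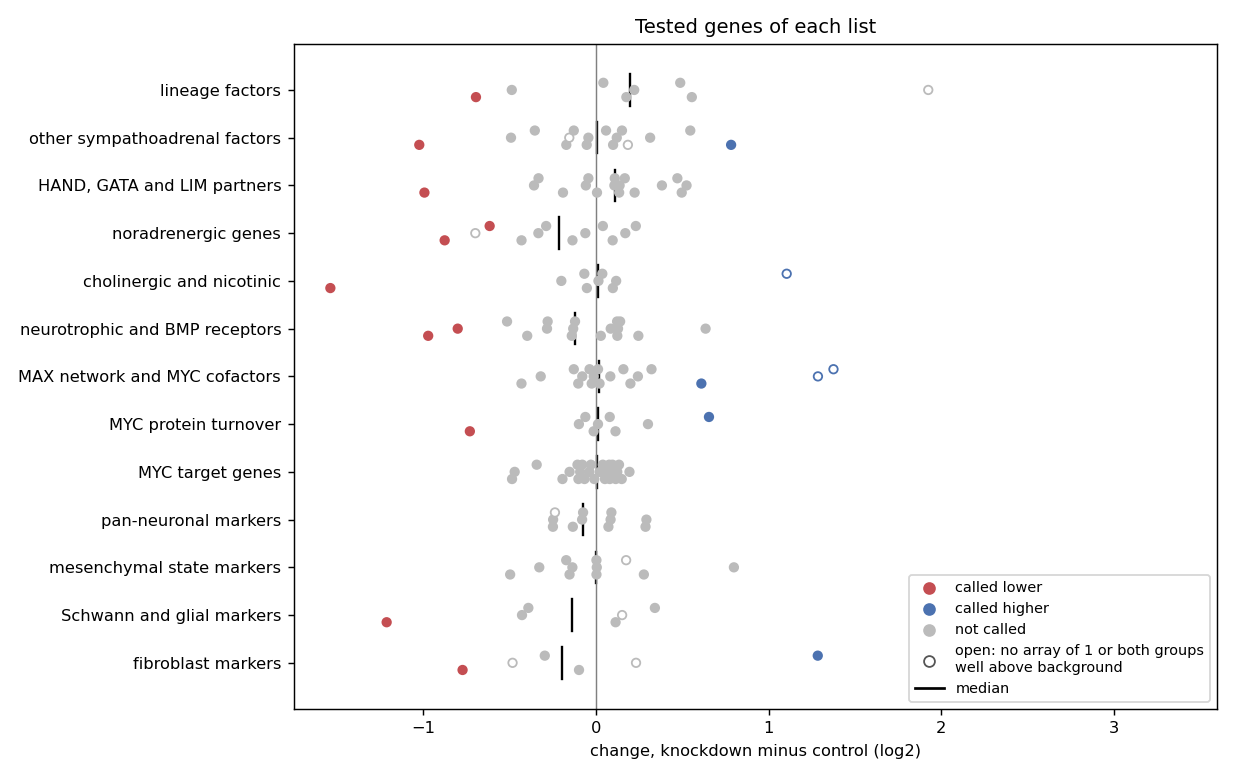
Change, knockdown minus control on the log2 scale, of every tested gene of the 8 factors and of 12 related lists, coloured by call, with the median of each list as a black line. Open points stand for genes with no array well above background in 1 or both groups. Between 0 and 3 genes of a list are called in either direction, and the medians lie between -0.21 and 0.20.

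Markers of other cell types were read beside these values. Of 11 tested pan-neuronal markers and 11 tested markers of the mesenchymal neuroblastoma state, limma called none. At the adjusted p alone 2 and 2 were lower and 1 and 0 higher, against 15.8% and 15.7% of all genes. Summed levels, in multiples of the 75th percentile, add signals of different probes, so the brightest probes of a list decide them. The summed mesenchymal level was 229 to 237 in control cells and 180 to 193 in knockdown cells, nearly all of it from Vim, which encodes the filament protein vimentin and changed by -0.33 (limma adjusted p = 0.00844). The median change of the mesenchymal list was 0.0031, with 6 of 11 markers above 0. Of 6 tested Schwann and glial markers, 1 was called lower and none higher, and the summed level was 0.643 to 0.685 in control cells and 0.366 to 0.386 in knockdown cells. Foxd3 and S100b were well above background on none of the arrays. Of 6 fibroblast markers, Col1a1 was called lower, at -0.77 (limma adjusted p = 0.0491), and Pdgfra higher, at 1.28 (0.00113), with summed levels of 0.230 to 0.275 in control cells and 0.263 to 0.305 in knockdown cells, and Col3a1 and Lum were well above background on none of the arrays. The Col1a1 call was lost without control replicate 1 or 2 or knockdown replicate 1 or 2, at adjusted p of 0.121 to 0.141, and was kept in 11 of 23 alternatives. Pdgfra was not called after normexp background correction, where its change was 0.56 and 0.51. Whether other cell types had a part in the changes of the factors was not tested.

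Over the 6 arrays, the genes whose pattern lay closest to Mycn among 13975 genes well above background on every array were Usf3, Lss and Bhlhe40. After each gene was centred on its control mean, their root mean square distances from Mycn were 0.0437, 0.0449 and 0.0458 on the log2 scale, and their own changes were -0.67, -0.74 and -0.71. These values are a description, since a choice by distance from Mycn fixes changes close to its own. USF3 and BHLHE40 are bHLH factors and LSS is lanosterol synthase, an enzyme of cholesterol synthesis.

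The nearest tested gene on each side of each factor, and any tested gene that overlaps it, were read in the RefSeq table, a choice made after values were seen. Of 18 such genes, 9930014A18Rik, a long noncoding RNA gene beside Myc, was called higher at 0.77 (limma adjusted p = 0.00309), and the others were not called. Beside Mycn, Ddx1, which is often co-amplified with MYCN in neuroblastoma, changed by 0.15 (limma adjusted p = 0.0943) and Cyria by -0.24 (0.216). On the other side of Myc, the long noncoding RNA gene Pvt1 changed by 0.030 (0.658). Inppl1, which overlaps Phox2a in the annotation, changed by 0.22 (limma adjusted p = 0.0595). Clpb and Folr2 on the 2 sides of Phox2a changed by -0.17 and -0.43 and passed the adjusted p (0.0371 and 0.0304). The lncRNA gene 4930412O13Rik, which overlaps Gata3, changed by -0.30 (0.0969), while Taf3 beside Gata3 changed by 0.395 and passed (0.0083). Itga1 and Parp8 beside Isl1 passed in opposite directions, at -0.51 (limma adjusted p = 0.0315) and 0.28 (0.0147). Sap30l beside Hand1 passed at 0.27 (0.0106). None of these reached the minimum fold. Of all genes tested, 15.8% were lower and 15.7% higher at the adjusted p alone, and 5.00% and 3.91% were called.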

How the data were processed

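The authors hybridised Cy3-labelled RNA of 3 control and 3 knockdown samples to single-colour Agilent mouse arrays and read them with Agilent Feature Extraction (version 10.10.1.1, per the file headers). The deposited tables hold, for every spot, a background-corrected processed signal, which is a linear intensity. The authors then set aside genes of low signal in GeneSpring. Their deposited series matrix holds log2 values of unstated scale, and over 43742 probes with 1 spot its differences between arrays matched the values used here to within 0.00748.

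Groups and replicate numbers came from the sample titles. Control spots and spots flagged as outliers were left out, log2 processed signal was scaled to the 75th percentile of its array, and spots of a probe were averaged. No spot was saturated. Of 55681 probes, 245 lacked a value, and 42126 reached the 20th percentile of their array on all 3 arrays of a group. Accessions were matched to symbols in the GRCm38.p6 RefSeq table, and a gene was read from its brightest probe, which gave 16490 genes. The groups were compared by lmFit and eBayes of limma 3.58.1 (R 4.3.3), two-sided and without covariates. P-values were adjusted across the 42126 probes that passed this filter (Benjamini-Hochberg), and the fit was tested on simulated arrays. Changes are knockdown minus control. Pairs of related factors were compared by exact permutation of the group labels (20 assignments). The number of arrays limits the precision, and for dim probes so does signal near background.

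The factors and gene lists were chosen with earlier results of these data known, so no list is independent evidence. Named genes are all 8 factors, the NF-Y subunits, Th and Dbh, the called genes of each list (at most 4 a direction) and the 3 genes nearest to a called factor. Other list genes are named to show what their list holds, and were chosen after their values were seen. Alternatives were other scalings, background corrections, filters, variance models, blocks and left-out arrays. Normexp was run on the median signal, since no mean signal column was among the columns used. Its offset of 50 intensity units shrinks the log2 changes of dim probes by construction. Some genes that these rules name and 2 promoter stretches are not reported here. A comparison of protein sequences was not run.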

Additional observations from a re-analysis of the deposited data

How the results depend on the processing

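Changes of Hand1, Hand2, Gata2, Gata3, Isl1, Mycn, Phox2a and Myc kept their direction and their side of the threshold under the alternatives, with the following exceptions, whose cause was not tested unless stated. Under quantile normalization Gata2 was called (0.62), which made 1 factor called higher. Under median centring, which moved the median change of all genes to -0.111, Phox2a was called (-0.60), 2 factors were called lower, the change of Myc turned to -0.074, and 382 genes were called higher. Centring on spike-ins left 312 genes called higher. Normexp with the 75th percentile left 278 called higher and turned the Hand1 minus Hand2 difference to -0.0078. Normexp with quantile normalization left 549 called lower and 292 higher and turned that difference to -0.11. The offset added in both normexp settings by itself shrinks the changes of dim probes such as that of Hand1. Without a minimum fold, Phox2a (-0.49), Gata2 (0.56), Gata3 (0.22) and Isl1 (0.49) were called by construction, which made 2 factors lower and 3 higher, and 2602 and 2597 genes in all. With the slide row as a block, where the changes are knockdown 1 against the controls, Mycn was not called (-0.70) and 0 factors were called lower. Within the row that holds both groups Mycn was again not called (-0.70), 0 factors were lower, and 0 genes were called in each direction, with 1 knockdown array left. Hand1 could not be fitted where a group had to be well above background on all its arrays. Leaving out each array in turn changed no call among the 8 factors, with Mycn between -0.76 and -0.63, and left 746 to 832 genes called lower and 545 to 609 higher. The replicate numbers were shared between groups but nothing says they pair the samples. Deviations of same-numbered arrays from their group means correlated at 0.0025 to 0.067, and with the replicate block Mycn stayed called at -0.69 (limma adjusted p = 0.0245), with 765 genes lower and 518 higher. Signal near background limits Hand1, Chrna5, Mycl and Mxi1.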
